A study of Homo sapiens with 2 samples.

Results

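HLF, TEF, DBP, NFIL3, CEBPA, CEBPB, CEBPD, CEBPE and CEBPG are 9 genes for basic leucine zipper (bZIP) transcription factors that bind the DNA motif of HLF or a related one. Their contacts were read from a list of 49245 significant interactions between 5-kb bins of hg38. An interaction was counted for a gene when either of its bins lay within 50 kb of the gene body (GENCODE release 44), and the bin in that window is called the anchor and the other bin the partner. This gave 47 interactions, or 0.095% of the list, and each of them belonged to a single gene. The list came from HiChIP, which joins chromatin immunoprecipitation to proximity ligation and counts the read pairs that link distant DNA at sites bound by a protein. The cells were HAL-01, a human leukemia cell line with the translocation t(17;19), which expressed Cas9GFP and in which wild-type TCF3 had been knocked out with a guide RNA under selection for stable loss. With this genotype the antibody against TCF3 (E2A) was meant to recover the fusion protein TCF3::HLF, which carries the DNA-binding end of HLF. There was a single condition with 2 biological replicates, which the authors merged before calling interactions. No value below has a replicate error, and no comparison between conditions exists.

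HLF, TEF and DBP form the PAR bZIP family, activators known for clock-driven transcription in liver and other tissues, and HLF is also known as a factor of blood stem cells. NFIL3 (also called E4BP4) recognizes the same sites, acts mainly as a repressor, and is known for its part in the development of natural killer cells. The C/EBP proteins bind a closely related palindrome and drive myeloid and fat cell differentiation, with CEBPA and CEBPE best known in granulocytes and CEBPG as a partner without an activation domain of its own.

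The sites that such proteins recognize are shown first, for the anchors at NFIL3, DBP and TEF described below. Exact matches were searched on both strands. The HLF motif was taken as TTACGTAA, which reads the same on both strands, or TTATGTAA, which reads TTACATAA on the other strand. The C/EBP form was TTGCGCAA, a palindrome too, and the mixed form was TTACGCAA, read TTGCGTAA on the other strand. None of these 8-base forms contains another. The sequences are hg38, plus strand, with the motif in capitals, and distances are counted in the direction of transcription from the gene start. The first lie in the bin that holds the NFIL3 start. NFIL3 is on the minus strand, and its start is the upper end of the gene at chr9:91409045-91423832. The match 355 bases past the start lies in an intron, as does the one at 1239 bases, and the C/EBP form lies 285 bases before the start.
NFIL3 HLF motif, chr9:91423451-91423510: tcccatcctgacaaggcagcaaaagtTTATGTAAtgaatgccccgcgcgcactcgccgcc
NFIL3 HLF motif, chr9:91422567-91422626: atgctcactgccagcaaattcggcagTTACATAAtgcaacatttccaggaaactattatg
NFIL3 C/EBP form, chr9:91424091-91424150: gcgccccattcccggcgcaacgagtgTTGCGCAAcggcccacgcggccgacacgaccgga

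The same bin holds a mixed form inside a RefSeq promoter of NFIL3 (GRCh38.p14, chr9:91424577-91424876, minus strand, 250 bases before to 50 after an upstream RefSeq start). It is printed whole because it was the only one of 13 RefSeq promoters, found for 8 of the 9 genes, with a match to any of these forms. The match begins at base 216.
NFIL3 promoter: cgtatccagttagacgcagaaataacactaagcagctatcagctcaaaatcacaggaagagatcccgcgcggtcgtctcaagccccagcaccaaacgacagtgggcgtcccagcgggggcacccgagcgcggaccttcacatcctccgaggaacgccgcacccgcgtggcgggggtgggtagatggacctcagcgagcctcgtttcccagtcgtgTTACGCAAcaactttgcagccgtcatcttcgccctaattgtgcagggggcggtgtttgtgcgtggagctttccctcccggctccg

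Among all 35116 RefSeq promoters of this length, 1.01% held an HLF motif, 0.151% the C/EBP form and 0.162% the mixed form. With so low a share, the count of 0 of 13 for the HLF motif sets these genes apart in no way.

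Further matches lie in other anchors. The DBP match sits in the bin with the most interactions of that window, and the TEF match to the C/EBP form lies in an intron of TEF. The last 3 lie past the end of NFIL3, toward and inside AUH.
DBP HLF motif, chr19:48659765-48659824: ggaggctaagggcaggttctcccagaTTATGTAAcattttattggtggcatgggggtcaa
TEF C/EBP form, chr22:41375897-41375956: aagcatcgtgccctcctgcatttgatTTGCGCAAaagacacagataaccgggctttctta
NFIL3 window HLF motif, chr9:91380243-91380302: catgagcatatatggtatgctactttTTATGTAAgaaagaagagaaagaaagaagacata
NFIL3 window HLF motif, chr9:91379113-91379172: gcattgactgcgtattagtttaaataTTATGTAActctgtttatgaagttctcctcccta
NFIL3 window HLF motif, chr9:91359379-91359438: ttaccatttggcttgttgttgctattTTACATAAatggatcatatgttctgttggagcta

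The 47 interactions were unevenly spread over the 9 genes. NFIL3 had 23, TEF and DBP had 7 each, CEBPB and CEBPE had 4 each, CEBPA and CEBPD had 1 each, and HLF and CEBPG had 0. Thus 7 of the 9 genes had at least 1 interaction, against 84.3% of all 19970 protein-coding genes on chromosomes 1 to 22 and X counted in the same way. The median of the 9 genes was 4, the same as the median of all protein-coding genes, whose quartiles were 1 and 8. NFIL3 had more than 94.9% of all genes, TEF and DBP more than 68.2%, CEBPB and CEBPE more than 49.9%, and CEBPA and CEBPD more than 15.7%. The PAR bZIP genes and NFIL3 together had 37 interactions in 4 genes, and the C/EBP genes had 10 in 5 genes. Since the windows include the gene body, they differed in length, from 101.3 kb for CEBPD to 160.2 kb for HLF. Per 100 kb of window, NFIL3 had 20.04 interactions, DBP 6.52 and TEF 5.30.

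**Figure D1:**
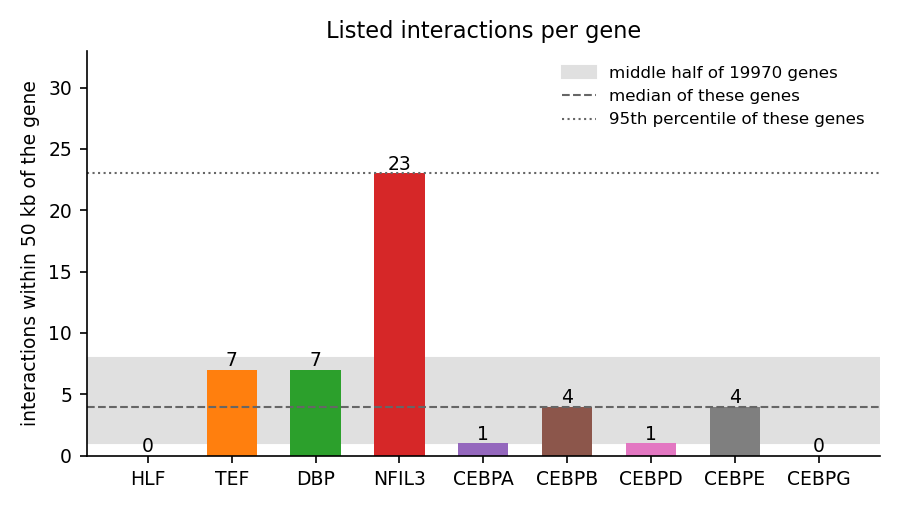
Bars show the number of listed interactions with a bin within 50 kb of each gene (y axis). The grey band spans the quartiles of all 19970 protein-coding genes (1 to 8), the dashed line is their median (4) and the dotted line their 95th percentile (23). NFIL3 reaches the dotted line, and HLF and CEBPG have no bar.

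The contact count of an interaction is the number of read pairs that join its bins, summed over both replicates and not normalized, and those of the whole list add up to 1268490. Intervals on single contact counts are exact Poisson 95% intervals. They treat each read pair as an independent count and cover no other source of error. Duplicate pairs were kept in the data, so the intervals can be too narrow even for counting error. The median contact count of the 47 interactions was 22 (95% interval from order statistics, 19 to 24; range, 13 to 42), and that of all listed interactions was 24. The bins were a median of 230 kb apart (170 to 365 kb), against 255 kb in the whole list. Contact counts fall with distance, so each was also divided by the median of all listed interactions at exactly the same distance. The median of these ratios was 0.923 (0.80 to 1.042) at the 9 genes, and 19 of the 47 were above 1. At NFIL3 the median ratio was 1.043 (0.864 to 1.185), and 13 of 23 were above 1. Both intervals contain 1. The 23 interactions at NFIL3 are among the 47, so the 2 intervals cannot be compared with each other. Both also treat interactions as independent, although many at NFIL3 share an anchor bin.

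**Figure D2:**
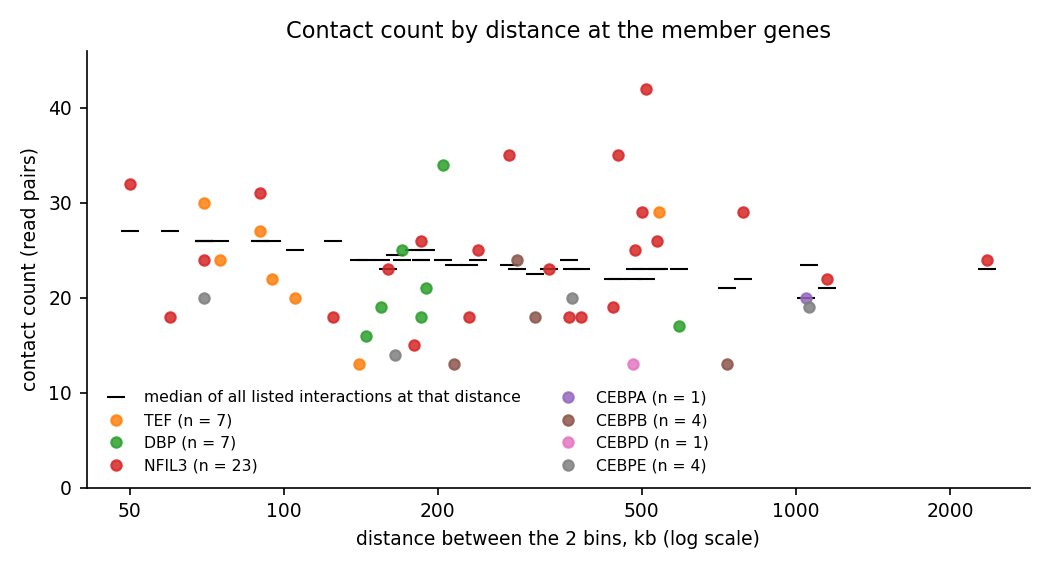
Each point is 1 of the 47 interactions, with the distance between its bins on the x axis (kb, log scale) and its contact count on the y axis, colored by gene. Black dashes mark the median of all listed interactions at the same distance. The NFIL3 points at 275, 450 and 510 kb lie farthest above their dashes, and the points at contact counts of 13 to 15 all lie below theirs.

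At NFIL3, contacts gathered on the start of the gene. The bin that holds the start (chr9:91420001-91425000) took part in 7 interactions, and the next bin, upstream of the gene and free of protein-coding sequence (chr9:91425001-91430000), in 10. These 17 interactions made up most of the 23, and the other 6 anchored on bins past the end of the gene. Among all 53535 anchor bins of the list, 95.2% had fewer interactions than the start bin and 97.9% fewer than the bin next to it. Both HLF motifs, the C/EBP form and the mixed form shown above lie in the start bin, and the bin with 10 interactions holds no HLF motif.

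The 3 strongest contacts of this window joined the start of NFIL3 to the stretch between SYK and AUH. SYK encodes the tyrosine kinase of antigen receptor signaling in B cells, and AUH a mitochondrial hydratase that also binds AU-rich RNA. The interaction with the largest contact count ran from the bin upstream of the start to chr9:90915001-90920000, 510 kb away, with a contact count of 42 (30.3 to 56.8). It also had the smallest P value at any of the 9 genes, 5.77e-24 from FitHiChIP, and the sum over its merged group of neighboring bin pairs (sumCC) was 99. At this distance, 4 of 149 listed interactions had a larger contact count. The start bin itself contacted chr9:90970001-90975000, 450 kb away, with a contact count of 35 (24.4 to 48.7) and 8 larger counts among 148 at that distance, and its sumCC was 62. It contacted chr9:91145001-91150000, 275 kb away, with the same contact count of 35 and 43 larger counts among 298, and a sumCC of 74. The count of 42 was 1.909 times the median at its distance and the counts of 35 were 1.591 and 1.489 times theirs. The Poisson intervals of all 3 overlap, so no order among them can be read.

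The start bin had 5 further partners, with lower contact counts. It joined chr9:91090001-91095000 with a contact count of 23 (14.6 to 34.5) at 330 kb. It joined 4 bins with a contact count of 18 (10.7 to 28.4) each, at 125 kb inside AUH and at 230, 360 and 380 kb in the stretch between SYK and AUH. None of the 7 partner bins of the start bin holds the start of a protein-coding gene. The bin at 125 kb and the one at 230 kb hold an HLF motif.

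The bin upstream of the start reached farther. It contacted the 3-prime part of SYK at 535 kb with a contact count of 26 (17.0 to 38.1), and DIRAS2, a gene for a Ras-like GTPase, at 790 kb with 29 (19.4 to 41.6). In the other direction it contacted CENPP, a centromere protein gene, at 1150 kb with 22 (13.8 to 33.3), and chr9:93785001-93790000 at 2360 kb with 24 (15.4 to 35.7). The nearest partners were at 50 kb, with a contact count of 32 (21.9 to 45.2), and at 70 kb, in the bin with the first exon of a short AUH transcript, with 24 (15.4 to 35.7). The remaining 4 were at 185 kb inside AUH (26), and at 440 kb (19), 485 kb (25) and 510 kb (the count of 42 above) between SYK and AUH.

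Of the 17 partner bins of these bins, 15 lay on the side of the gene body, from 46.3 to 786 kb past the start, and 2 lay upstream, both more than 1 Mb away. The 17 listed partners were all different, but neighboring bin pairs had been merged into 1 entry, so a partner common to the adjacent start bins could not appear. There were 5 partners with an HLF motif and 12 with no other interaction in the list. No listed interaction joined 2 of the partners to each other, and 3 did after each partner was widened by 1 bin on both sides.

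**Figure D3:**
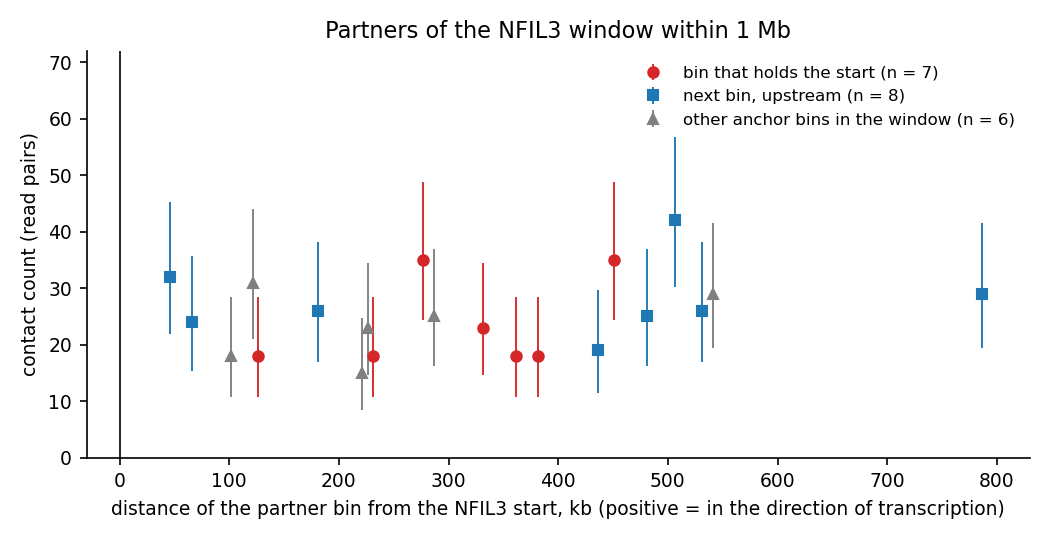
Each point is a partner bin of the NFIL3 window, with its distance from the NFIL3 start on the x axis (kb, positive in the direction of transcription) and the contact count on the y axis. Bars are exact Poisson 95% intervals. Circles belong to the bin that holds the start, squares to the next bin upstream and triangles to other anchors. All 21 partners within 1 Mb lie on the side of the gene body, and the 2 partners beyond 1 Mb are left out.

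The other 6 interactions of the NFIL3 window started from 4 bins past the end of the gene. The largest joined chr9:91390001-91395000 to a bin inside AUH (chr9:91300001-91305000) with a contact count of 31 (21.1 to 44). That AUH bin took part in 11 interactions, more than 98.4% of anchor bins. Another joined chr9:91380001-91385000 to SYK at 500 kb with a contact count of 29 (19.4 to 41.6). The bin with the HLF motif in AUH (chr9:91355001-91360000) and the one at chr9:91375001-91380000 were also partners of the bin upstream of the NFIL3 start.

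In wider windows the density around NFIL3 remained high. Within 250 kb it had 59 interactions, more than 97.1% of genes, and within 1 Mb 80, more than 82.9%. For comparison, TEF had 26 and 60, CEBPB 15 and 66, DBP 12 and 24, CEBPE 8 and 30, CEBPD 6 and 16, and CEBPA 2 and 21. HLF and CEBPG, with 0 in the 50-kb window, had 3 each within 250 kb, and 34 and 21 within 1 Mb.

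At TEF, the contacts did not fall on the start of the gene. The bin that holds it (chr22:41365001-41370000) has an HLF motif and no listed interaction. An anchor past the TEF body had 4 interactions. Of these, the one with the smallest P value at TEF, 5.92e-14, ended at the start of SMIM45, 540 kb away, with a contact count of 29 (19.4 to 41.6). At that distance 20 of 107 listed interactions had a larger count. A single interaction touched the TEF gene body, from the intronic bin with the C/EBP form to the start of RANGAP1, the gene for the activator of the GTPase Ran, at 90 kb with a contact count of 27 (17.8 to 39.3). The RANGAP1 bin took part in 11 interactions and holds 2 HLF motifs. Another 2 interactions of the TEF window started in ZC3H7B, with contact counts of 24 (15.4 to 35.7) and 13 (6.9 to 22.2).

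In the DBP window, none of the 7 interactions touched the gene. The nearest anchor was 17.6 kb from the gene body, and 71.2% of all protein-coding genes had a nearer one. Of the 7, 4 left the bin chr19:48655001-48660000, which lies upstream of the DBP start and holds the TTATGTAA site shown above. Its largest contact was with the bin that holds a start of PLEKHA4, 205 kb away, with a contact count of 34 (23.5 to 47.5), a P value of 2.93e-17 and 55 larger counts among 400 at that distance. Its other contacts were with HSD17B14, a steroid dehydrogenase gene (25; 16.2 to 36.9), with the bin at the start of CYTH2 (21; 13.0 to 32.1) and with another bin of PLEKHA4 (18; 10.7 to 28.4). The remaining anchors gave contact counts of 19, 17 and 16. The DBP window is shared with 7 other protein-coding genes and the TEF window with 3, so an interaction counted here for DBP or TEF is near other genes as well. The bins joined by single interactions in the DBP window shared up to 66 sequences of 31 bases, which was the largest such number at the 9 genes. Whether such repeats add read pairs was not tested.

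Of the C/EBP genes, CEBPE alone had its start in an anchor, with the start taken as the outer end of the GENCODE gene. Counting NFIL3, this makes 2 of 9 genes, against 13.5% of all protein-coding genes by the same definition. The annotated starts of CEBPE fall in 2 bins, and only the bin of the outer end had interactions. The RefSeq promoter of CEBPE (chr14:23119206-23119505) lies outside that bin, so this result depends on the start used. The CEBPE start bin (chr14:23120001-23125000) contacted a bin inside NGDN at 365 kb with a contact count of 20 (12.2 to 30.9), and on the other side the bin at the start of HAUS4, a subunit gene of the augmin complex, at 165 kb with 14 (7.7 to 23.5). The count of 14 was 0.571 times the median at its distance, and 419 of 442 interactions there had a larger count. The other 2 interactions of the CEBPE window came from bins inside SLC7A8, an amino acid transporter gene, and ACIN1. Each of these bins holds an annotated transcript start, but not the start at the outer end of its gene. The interaction from SLC7A8 ran to RNF212B with a contact count of 20 (12.2 to 30.9) and had the smallest P value of this window, 8.42e-07. That from ACIN1 ran to chr14:22010001-22015000, 1060 kb away, with 19 (11.4 to 29.7). None of the 4 was above the median at its distance.

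CEBPB had 4 interactions, from 4 anchors without an HLF motif, and none of them held the gene, which is a single exon. The anchors centered 13.3 kb before and 11.7 kb past the CEBPB start both reached the same bin, chr20:50485001-50490000, 297 kb past the start. The contact count from the nearer anchor was 24 (15.4 to 35.7; sumCC 44; P value 3.57e-09) and that from the other was 18 (10.7 to 28.4). This shared partner lies between genes, 22.8 kb from the start of PTPN1, took part in 6 interactions and has no HLF motif. The other 2 interactions had contact counts of 13 (6.9 to 22.2) each. They ended at a bin 215 kb away with 2 HLF motifs, and at the bin of the neighboring starts of DPM1 and MOCS3, 735 kb away, with 3 HLF motifs and 11 interactions. With a count of 13 and q-values of 0.00725 and 0.00505, both lay near the limit of 0.01 set by the authors.

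CEBPA and CEBPD had a single contact each. That of CEBPA ran over 1045 kb, from chr19:33270001-33275000, 24.9 kb from the gene body, into GARRE1, with a contact count of 20 (12.2 to 30.9; P value 2.75e-07). The median at this distance was also 20. That of CEBPD ran over 480 kb, from an anchor 21.8 kb from the gene to a bin inside SPIDR that took part in 7 interactions, with a contact count of 13 (6.9 to 22.2; P value 0.00108). At this distance 120 of 128 interactions had a larger count. CEBPA and CEBPG lie beside each other on chromosome 19, with overlapping surroundings, and no anchor lay within 98.7 kb of CEBPG. The list had no anchor for 260 kb between the bin of the CEBPA contact and chr19:33535001-33540000, while 3 interactions spanned CEBPG. Across all protein-coding genes the median number of spanning interactions was 6.

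HLF had no anchor within 204.8 kb of its body, and 95.9% of protein-coding genes had a nearer one. Its gene lies at chr17:55264960-55325187, in a stretch of 600 kb without an anchor, from chr17:54925001-54930000 to chr17:55530001-55535000. Of the 53512 stretches between neighboring anchors of the list, 390 were longer. No interaction spanned HLF, which held for 6.0% of protein-coding genes. The reference has no undetermined bases in this stretch, and it holds 57 HLF motifs, of which 10 lie in the 50-kb window of HLF, close to the 11 in the shorter window of NFIL3. Past the stretch, contacts resumed. The bin chr17:55530001-55535000, which holds an HLF motif, joined chr17:55690001-55695000 with a contact count of 36 (25.2 to 49.8) at 160 kb and a bin of SCPEP1 with 17 (9.9 to 27.2) at 1470 kb. A bin 40 kb beyond it joined the same chr17:55690001-55695000 with a contact count of 33 (22.7 to 46.3). HLF is the gene cut by t(17;19), and the list holds 0 interactions between chromosomes, so a contact of HLF sequence with chromosome 19 had no place in it. The share of copies of chromosome 17 that carry the translocation in these cells, and its part in the missing contacts, were not tested.

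The HLF motif occurred in the anchors of the 9 genes at a share whose interval contains that of all anchors. Of 23 anchor bins in the windows, 6 had it (26.1%; Wilson 95% interval, 12.5 to 46.5%). Of 46 partner bins, 14 had it (30.4%; 19.1 to 44.8%), and of all 53535 anchor bins 31.5% did. The NFIL3 bins chr9:91355001-91360000 and chr9:91375001-91380000, which hold the motif, were counted both as anchors and as partners. In bins 25 kb away from the anchors that were not anchors themselves, 0 of 39 had it (0.0 to 9.0%), and in those 50 kb away 5 of 37 did (13.5%; 5.9 to 28.0%). The interval at 50 kb overlaps that of the anchors. The more frequent form TTATGTAA made up most matches, with 5 of the 23 anchors (21.7%), and TTACGTAA occurred in 1 (4.3%, against 2.3% of all anchor bins). The C/EBP form was in 2 of the 23 anchors (8.7%; 2.4 to 26.8%), the NFIL3 start bin and the TEF intron, against 0.7% of all anchor bins. It was in 1 of the 46 partner bins (2.2%; 0.4 to 11.3%) and in 0 of the 39 flanking bins 25 kb away (0.0 to 9.0%). The share in the anchors thus rests on 2 bins. Of the 4 anchors with 4 or more interactions, 3 held an HLF motif, among them the NFIL3 start bin and the DBP anchor, while the exception was the bin upstream of the NFIL3 start. In the whole list 51.4% of such bins held it, against 29.0% of bins with 1 to 3 interactions. In the windows of the 9 genes the latter share was 15.8% (5.5 to 37.6%; 3 of 19). At least 1 of the bins held the motif in 30 of the 47 interactions (63.8%), against 66.8% of all listed interactions, and both did in 4 (8.51%), against 16.2%. Of these 30, 15 left the 3 anchors just counted, so they are not independent of each other.

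By annotation, 8 of the 23 anchors overlapped an exon of a protein-coding gene, 2 lay within introns only and 13 lay between genes. Among the partners that were not themselves anchors of a window, these numbers were 14, 13 and 17. The same shares over all anchor bins are not given here, so these numbers only describe the bins counted. A total of 39 of the 47 interactions (83.0%) were single bin pairs whose sumCC equaled the contact count, against 92.3% of the list. Of the 8 merged groups, 6 were at NFIL3, 1 at TEF and 1 at CEBPB.

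Other genes of the same pathways were counted by the same rule. Their counts were not divided by the length of the window, so a long gene body can raise them. Of 19 circadian clock genes, 17 had an interaction, with a median of 7, and RORA (17), CRY1 (15) and NPAS2 (15) had the most. Of 43 other bZIP genes, 39 had one, with a median of 6. The most were at BACH2 (65), BATF3 (34) and XBP1 (33), a factor of the unfolded protein response, and 5 of the 43 exceeded NFIL3. These shares stand beside the 84.3% of all protein-coding genes given above, and none of the clock genes exceeded NFIL3.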

How the data were processed

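The data are anti-TCF3 MNase-HiChIP of TCF3-KO HAL-01 cells, with 2 replicates of 1 group. According to the methods, the authors trimmed reads with Trim Galore 0.6.6, merged the replicates, aligned to hg38 with BWA-MEM, extracted pairs with pairtools without removing duplicates, called MACS2 peaks as reference and called interactions with FitHiChIP (version not given in the sources used here) at 5-kb resolution (distance range 50 kb to 3 Mb, q-value limit 0.01) and merged nearby contacts. The deposited contact count is a count of read pairs without normalization. The deposited p-value and q-value are those of FitHiChIP. A deposited fraction, the part of a merged group's bin pairs that was significant, entered no comparison. Since duplicates stay in, contact counts can be inflated, and distances under 50 kb have no entry.

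From the list, interactions were assigned to genes of GENCODE release 44, and every bin lay within its hg38 chromosome. Motifs were exact matches in hg38, promoters came from RefSeq on GRCh38.p14, and shares and counts have 95% intervals (Wilson, exact Poisson, order statistics for medians). The scripts were tested on simulated data. No test was run, since the replicates were merged, and the 9 genes, the lists and the motifs were chosen with earlier results of these data known. Named are all 9 genes, for each the interaction with the largest contact count, the one with the smallest P value and those of the bin that holds its start, the protein-coding genes whose start lies in a partner bin, and the 3 genes of each list with the most interactions. Some interactions and a sequence of the TEF window are not reported here. Other interactions, bins and the genes that partner bins overlap were picked with their values in view. The settings varied were the windows, stricter q-values, a minimum contact count, distances up to 1 Mb, merged bin ranges, sumCC and other motif forms. Tables were handled with pandas 2.3.3 and numpy 2.4.6 in Python 3.11.15, intervals with scipy 1.17.1, sequence with samtools 1.23.1 and pyfaidx 0.9.0.4, and plots with matplotlib 3.10.9.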

Additional observations from a re-analysis of the deposited data

How the results depend on the processing

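The number of interactions at the 9 genes (47) and of genes with at least 1 (7) followed the window: with the gene body alone they were 10 and 3, and with 10 kb on each side 23 and 4. The number was 28 at a q-value under 1e-05 and 29 with a contact count of at least 20, and the median contact count was 25 under both. Without the NFIL3 locus, an alternative chosen after seeing the data, 24 interactions were left and the share of anchors with an HLF motif was 11.8% in place of 26.1%. That share was 4.3% with TTACGTAA alone, 8.7% with the C/EBP form TTGCGCAA and 4.3% with the mixed form TTACGCAA. The bins that hold a gene start had 9 interactions, and those within 10 kb of a start had 23. The other 23 values computed under alternatives moved by less than 1.5 times for counts or stayed in the 95% interval for medians and shares. Among these 23, the share of anchors with an HLF motif rose to 42.9% at a q-value under 1e-05. This stayed inside its wide interval of 12.5 to 46.5%. NFIL3 had the most interactions of the 9 genes in each of the 9 settings of window, threshold and overlap. HLF had 0 in each, but its nearest anchor was 204.8 kb away. Windows of up to 100 kb and stricter limits could therefore give it nothing else. No paired analysis was possible because the replicates were merged before calling and no test was run, and for the same reason neither replicate could be left out. A contact count of 13 has a Poisson interval of 6.9 to 22.2, which can be too narrow with duplicates kept. Most counts within a window therefore cannot be ordered.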

Other observations

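Of 18 myeloid genes known as C/EBP targets, 13 had at least 1 interaction within 50 kb, with a median of 2.5, where the share of all protein-coding genes was 84.3% and their median 4. The 3 genes with the most were S100A9 (56) and S100A8 (40), neighboring genes for subunits of calprotectin whose windows overlap and therefore share interactions, and CSF3R (26), the gene of the granulocyte colony-stimulating factor receptor. These 3 were the only ones of the 18 with more interactions than NFIL3, again without division by window length. The 2 clock genes without an interaction were CLOCK and PER1, and the 4 other bZIP genes without one were CREB3L2, JUNB, JUND and NRL. These 6 names were chosen after their values were seen.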
